A study of Homo sapiens with 6 samples.

Results

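Antisense long noncoding RNAs are transcribed from the strand opposite to another gene, and the gene they lie against lends them its name with the ending -AS and a digit. The members described here were selected on measured values. They are the genes whose symbol has that ending and whose larger mean of the 2 groups was at least 5 TPM, a unit that divides a gene's reads by its length and by the library's total. Of 58174 genes, 1808 had such a symbol, 1277 of these were above 0 in at least 1 group, and 208 reached the minimum. Since the level in either group chose the members, counts and medians over them are descriptions with no test.

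AGS is an established line of human gastric adenocarcinoma cells. Total RNA was sequenced from 3 libraries named si-NC, the control siRNA, and 3 named si-FTO, the siRNA against FTO, an RNA demethylase that removes the methyl mark m6A. The genotype labels differ from these names, calling the si-NC libraries wild type and the si-FTO libraries FTO-/-. Every value below is the authors' mean of a group, so no error between libraries and no depth stands beside it, and the authors' own columns of comparison, p-values included, were not used.

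Antisense RNAs can begin beside the start of their sense gene and run away from it, cover its start or end, or lie within it. Some act in the nucleus on the chromatin or the transcription of the neighbouring gene, some pair with its RNA, and many have no known function. They are often less abundant than coding RNAs and are trimmed or degraded by the nuclear exosome, the complex that destroys many short-lived nuclear transcripts.

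The targeted gene came first. Mean FTO was 33.1 TPM with si-NC and 7.27 TPM with si-FTO, and its log2 ratio was -2.05. Here and below a log2 ratio is si-FTO over si-NC after adding 1 TPM to each mean, so changes of genes at low levels are understated. The lower FTO level is in the direction that both the titles and the genotype labels give.

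The markers of the labelled cell type were uneven between the groups, and many were near 0 in both. Of 19 gastric epithelial markers, 8 were at 1 TPM or more with si-NC and 8 with si-FTO, and their summed level was 129 TPM against 5138 TPM. The most abundant was KRT18, a keratin of simple epithelia, at 52.1 TPM in si-NC, and its partner KRT8 at 3139 TPM in si-FTO. KRT8 had 10.8 TPM in si-NC, and KRT18 had 1851 TPM in si-FTO. Of the 7 that reached 5 TPM in a group, 5 were higher by a log2 ratio of at least 1 and 2 were that much lower. Besides the keratins, the higher ones were the transcription factor ELF3 (0.115 TPM with si-NC, 93.3 TPM with si-FTO), the mucin MUC1 (1.71 and 31.0 TPM) and the claudin CLDN7 (1.17 and 14.8 TPM). The defining epithelial genes EPCAM (1.22 and 0.113 TPM) and CDH1 (3.67 and 0.685 TPM) were low in both groups. KRT19, TFF1 and TFF2 were listed at 0 in si-NC, and ESRP1, GRHL2, TFF1 and GATA4 in si-FTO. GATA4, a transcription factor of the stomach and heart, had 36.96 TPM in si-NC, and the related GATA6 went from 20.3 to 2.54 TPM.

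Markers of other cells also moved with the group. The 4 neuronal-type genes summed to 123 TPM with si-NC and 5.73 TPM with si-FTO. The neurofilament genes NEFL, the most abundant of them in si-NC at 62.7 TPM, and NEFM, at 49.9 TPM, were listed at 0 in si-FTO, where TUBB3 led and STMN2 was also listed at 0. The 4 mesenchymal genes summed to 530 and 770 TPM, led in both groups by VIM at 440 and 752 TPM, a log2 ratio of 0.77. None was higher by a log2 ratio of at least 1, and 2 were that much lower. These were CDH2, from 53.7 to 1.25 TPM, and FN1, from 27.7 to 8.74 TPM, while ZEB1 had 8.37 and 8.47 TPM. The 6 fibroblast genes summed to 16.0 and 45.5 TPM, led by COL1A1, with COL1A2 listed at 0 in si-FTO. COL1A1 (10.3 and 36.4 TPM), PDGFRB (0.370 and 5.34 TPM) and DCN (0.158 and 0.866 TPM) had higher means in si-FTO. COL3A1 (2.18 and 0.361 TPM) and LUM (2.95 and 2.52 TPM) had lower ones. The 4 leukocyte genes summed to 2.14 and 6.67 TPM, led by CD68, and PTPRC, which marks leukocytes, was listed at 0 in both groups. Of 3 endothelial genes 2 were found. They summed to 0.0132 and 41.0 TPM, and nearly all of the si-FTO sum came from CDH5. VWF stayed under 0.1 TPM in both groups. So the groups differed in genes that define cell identity, and the markers do not agree on the label AGS, since some epithelial genes were high in si-FTO and others near 0 in both groups. The part of these differences in the antisense results was not tested. In RNA from whole cultures, fewer cells of a kind and less RNA per cell cannot be told apart.

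**Figure D1:**
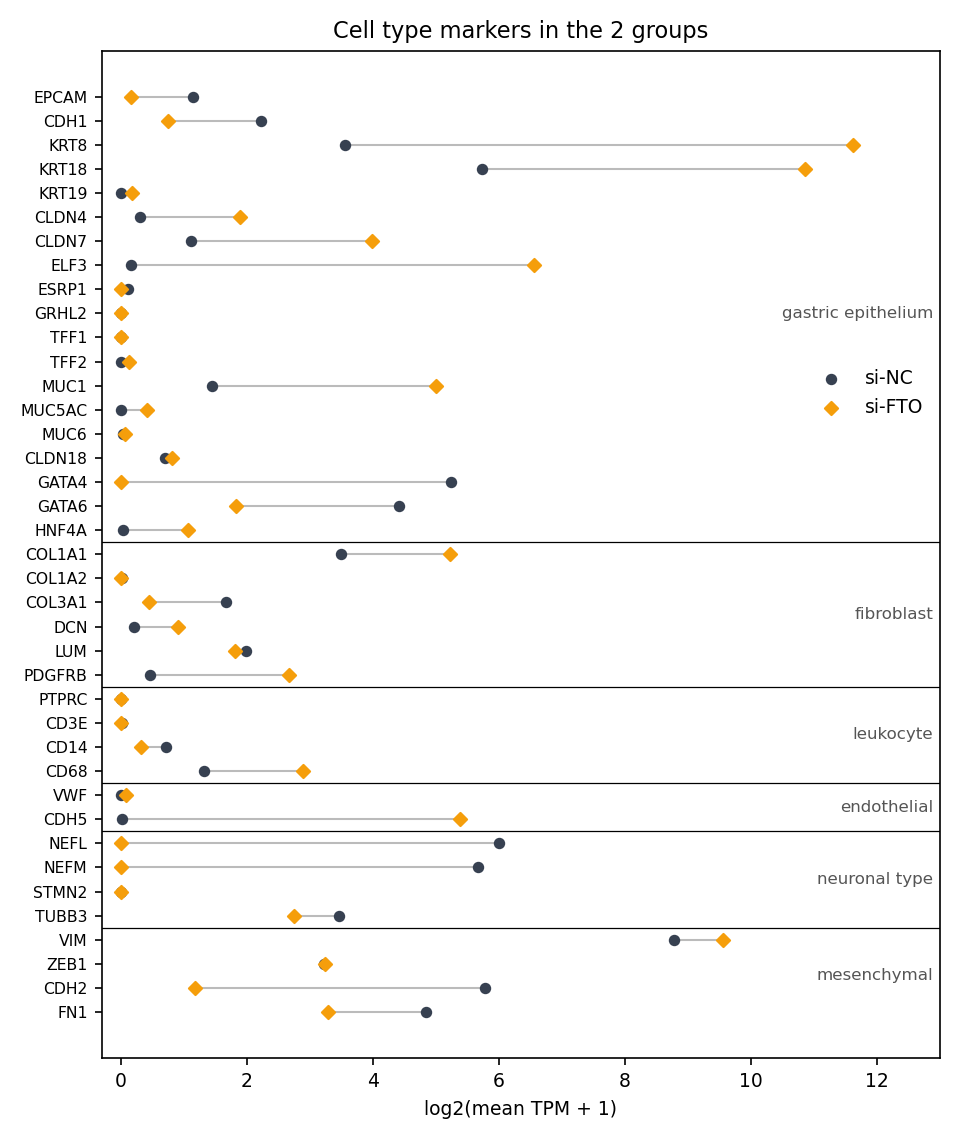
Mean TPM of each cell type marker in si-NC (circles) and si-FTO (diamonds), as log2(TPM + 1), 1 gene per row and grouped by the cells the genes mark. KRT8 and KRT18 are far higher in si-FTO, NEFL, NEFM, CDH2 and GATA4 are higher in si-NC, and EPCAM and CDH1 are low in both.

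The members spread to both sides. Of 208, 41 had a log2 ratio of at least 1 (19.7%) and 54 a ratio of at most -1 (25.96%). Among all 12967 genes at the same minimum, 13.3% were that much higher and 17.4% that much lower. The members' ratios reached 6.11, with a median of -0.28 and quartiles of -1.04 and 0.62, and the lowest belong to genes listed at 0 in si-FTO, where the size depends on the added 1 TPM. The median of all 12967 genes was itself below 0, at -0.18, and relative to it the members' median was lower by a difference of -0.10. That order depends on the minimum. At 1 TPM the members' median of -0.13 was above the -0.21 of all genes, and with no minimum -0.046 was above -0.053. The added 1 TPM holds ratios of genes under 1 TPM between -1 and 1, which draws the medians with no minimum toward 0. When the groups were scaled to a common median ratio, 45 members were higher and 44 lower, and the shares of all genes turned likewise, to 15.5% higher and 14.6% lower. Under quantile normalization 45 members were higher and 40 lower, while all genes kept the larger share on the lower side, 15.5% against 14.5% higher. The larger number of lower members thus depends on the scale.

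The shares were also set beside those of all genes of like level. The members' median level was 8.004 TPM with si-NC and 7.20 TPM with si-FTO, against 22.4 and 21.2 TPM for all genes at the minimum. Of 89 members whose larger mean was under 10 TPM, 14.6% were higher and 24.7% lower, and of all 2182 genes in that range 13.4% and 29.2%. Of 79 members from 10 to under 20 TPM, 24.1% were higher and 29.1% lower, beside 12.4% and 21.2% of 2788 genes. Of 40 members at 20 TPM or more, 22.5% passed in each direction, beside 13.7% and 12.8% of 7997 genes. The lowest range was thus close to all genes of like level, and the upper ranges held larger shares past the fold.

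Many members reached the minimum in only 1 group. There were 99 with at least 5 TPM in both groups, 58 only in si-NC and 51 only in si-FTO. These are 47.6%, 27.9% and 24.5% of members, beside 78.5%, 13.03% and 8.47% of all genes at the minimum. Members under 1 TPM numbered 16 with si-NC (7.69%) and 19 with si-FTO (9.13%), beside 3.52% and 5.85% of all genes. These shares were not matched for level. The members lie nearer the minimum, with a median of 8.004 TPM in si-NC against 22.4 TPM for all genes. A lower level alone makes a gene more likely to miss the minimum in 1 group, so the 2 cannot be told apart here. At the edge of the rule, ZNF561-AS1 (5.005 TPM in si-NC, 2.53 TPM in si-FTO) and A1BG-AS1 (5.07 and 0.820 TPM) were just inside. MYG1-AS1 (1.96 and 4.94 TPM) and CBLL1-AS1 (4.88 and 4.83 TPM) were just outside. The sense gene of A1BG-AS1, the plasma glycoprotein gene A1BG, had 8.15 and 0.0496 TPM, and ZNF561, a zinc finger gene, had 30.3 and 22.8 TPM.

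**Figure D2:**
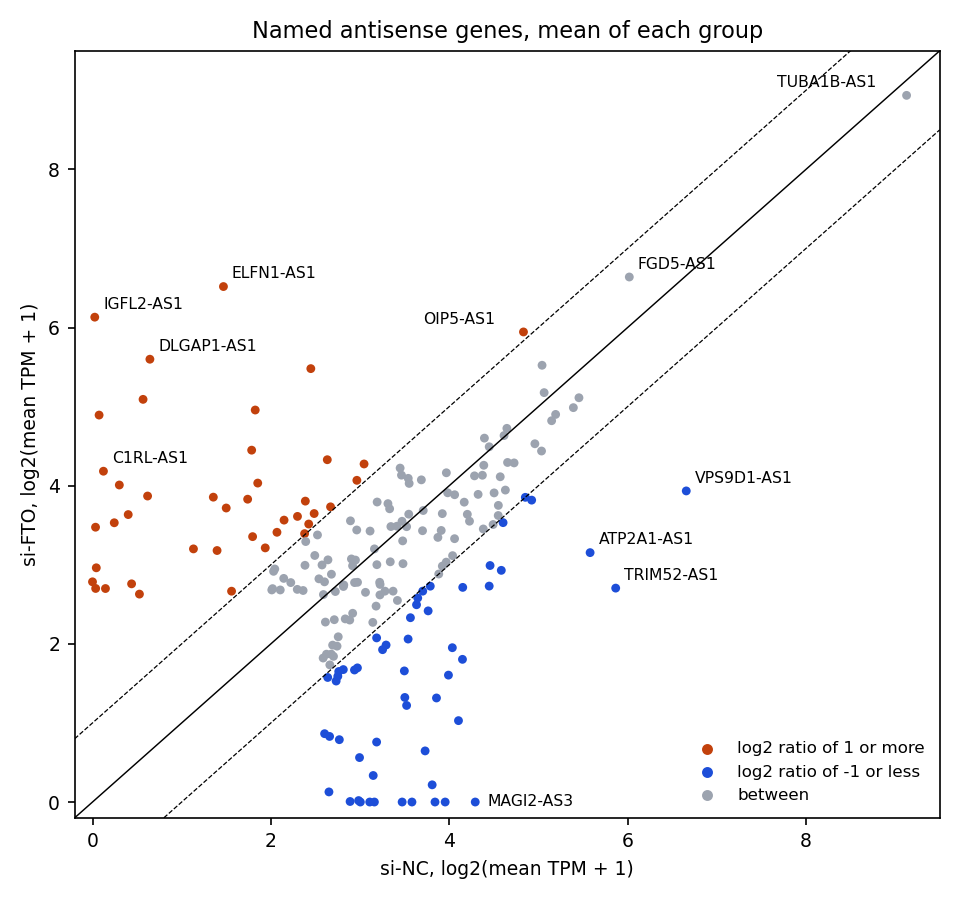
Each point is 1 of the 208 members, with its mean in si-NC across and in si-FTO up, both as log2(TPM + 1). The solid line marks equal means and the dashed lines a log2 ratio of 1 and -1. The 41 red and 54 blue points lie outside the dashed lines, and TUBA1B-AS1 stands above all others in both groups.

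The 8 most abundant members, ranked by the average of their 2 group means, had no common direction. TUBA1B-AS1 had 559 TPM with si-NC and 489 TPM with si-FTO. It covers the start of TUBA1B, an alpha-tubulin gene at 2814 and 3053 TPM, and 35.5% of its exonic bases lie over exons of the other strand. Whether the counting used strand is not given in the sources used here, so its level cannot be told apart from tubulin reads and is uncertain. The same holds for each member that shares exons with the other strand. Some members, such as OIP5-AS1 with NUSAP1, also overlap a gene on the same strand. Whether exons are shared there was not measured, so their levels may be uncertain too.

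FGD5-AS1 followed, at 63.8 and 98.7 TPM, with its sense gene FGD5, an exchange factor for the GTPase CDC42, below 1 TPM in both groups. VPS9D1-AS1 lies inside VPS9D1 and had 99.96 and 14.3 TPM, while VPS9D1 had 8.58 and 9.77 TPM. OIP5-AS1, a conserved RNA, had 27.5 and 60.6 TPM. Its sense gene OIP5, which helps load the centromere histone, had 32.7 and 38.1 TPM. VPS9D1-AS1 was lower and OIP5-AS1 higher by the fold, while FGD5-AS1, at 0.62, and the 3 sense genes were under it.

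GATA2-AS1 had 31.9 and 45.0 TPM beside GATA2, a blood and endothelial transcription factor, at 45.8 and 60.1 TPM. C10orf95-AS1 had 42.8 and 33.6 TPM and NUTM2A-AS1 41.0 and 30.7 TPM, and both exceeded their sense genes C10orf95 (3.35 and 2.63 TPM) and NUTM2A (1.73 and 0.734 TPM). None of these 3 passed the fold. ELFN1-AS1, also among the 8 most abundant, is described with the members that were most higher.

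The 10 members most higher in si-FTO lie at 8 loci, since DLGAP1 and BCAN each have a pair of them. ELFN1-AS1 lies inside ELFN1, a synaptic adhesion gene, and had 1.77 TPM with si-NC and 90.7 TPM with si-FTO, a log2 ratio of 5.05. ELFN1 itself had 1.51 and 0.901 TPM. DLGAP1-AS1 and DLGAP1-AS2 lie inside DLGAP1, which encodes a scaffold of the postsynaptic density. They had 0.562 and 47.5 TPM, and 0.184 and 10.6 TPM, while DLGAP1 stayed under 0.5 TPM in both groups. Both RNAs of that locus were thus high only in si-FTO, with their sense gene near 0.

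BCAN-AS1 and BCAN-AS2 flank BCAN, the gene of brevican, a proteoglycan of the brain matrix. BCAN-AS1 starts 386 bases from BCAN, head to head, and had 0.0239 and 10.1 TPM. BCAN-AS2 covers the end of BCAN and had 0.0526 and 28.7 TPM. BCAN had 0.287 and 5.36 TPM, so here the sense gene was higher in the same group, at a lower level than either antisense gene.

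IGFL2-AS1 had the largest ratio of all members, 6.11, from 0.0177 TPM in si-NC to 69.1 TPM in si-FTO. Its namesake IGFL2, a member of the insulin growth factor-like family, does not overlap it and was at 0.0770 TPM with si-NC and listed at 0 with si-FTO. DNAH17-AS1, inside the axonemal dynein gene DNAH17, had 0.481 and 33.1 TPM, beside 0.991 and 8.43 TPM for DNAH17. ANXA2R-AS1 covers the start of ANXA2R, an annexin receptor gene, and had 0.534 and 13.6 TPM, while ANXA2R had 1.81 and 1.85 TPM.

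C1RL-AS1 covers the start of C1RL, a serine protease gene related to complement C1r, and had 0.0887 and 17.2 TPM. C1RL moved with it, from 2.03 to 34.8 TPM. ZFPM2-AS1, which covers the end of ZFPM2, went the other way from its sense gene. It had 0.232 and 15.1 TPM, and ZFPM2, a cofactor of GATA factors, had 4.75 and 0.357 TPM.

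Most of the members most lower in si-FTO were listed at 0 there. MAGI2-AS3 had 18.6 TPM in si-NC and was listed at 0 in si-FTO. It covers the start of MAGI2, a junction scaffold gene, at 1.46 and 0.00582 TPM. LBX1-AS1 starts 114 bases from LBX1, a homeobox gene of muscle precursors and spinal cord, and had 14.5 TPM in si-NC, with LBX1 at 5.28 TPM. Both LBX1-AS1 and LBX1 were listed at 0 in si-FTO.

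IRS4-AS1 had 13.3 TPM in si-NC beside 427 TPM for IRS4, an adaptor of insulin signalling, and both were listed at 0 in si-FTO. SOX21-AS1 had 10.1 TPM beside 15.9 TPM for SOX21, a transcription factor of neural progenitors, and again both were listed at 0 in si-FTO. SNTG2-AS1 had 11.0 TPM and SNTG2, a syntrophin gene, 1.02 TPM, and both were listed at 0 in si-FTO. In these 3 pairs and that of LBX1, neither the antisense gene nor its sense gene had a value above 0 in si-FTO.

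The other strongly lower members were ATP6V1B1-AS1, BBOX1-AS1, TRABD-AS1, TRIM52-AS1 and HOXB-AS4, the last without a single sense gene. ATP6V1B1-AS1 had 13.01 and 0.163 TPM, while ATP6V1B1, a subunit of the vacuolar proton pump, had 3.86 and 4.16 TPM. BBOX1-AS1 had 7.63 TPM in si-NC and was listed at 0 in si-FTO, and BBOX1, an enzyme of carnitine synthesis, was under 0.1 TPM in both groups. TRABD-AS1 had 12.3 and 0.565 TPM, and TRABD 77.4 and 38.9 TPM. TRIM52-AS1, which starts 19 bases from TRIM52, a RING finger gene, had 57.3 and 5.52 TPM, and TRIM52 had 35.7 and 15.5 TPM. HOXB-AS4 had 7.94 TPM and was listed at 0 in si-FTO. In all, 8 members (3.85%) were listed at 0 in si-FTO and 1 (0.481%), TM4SF1-AS1, in si-NC. Among all 12967 genes, 316 (2.44%) and 103 (0.794%) were, so more genes were listed at 0 in si-FTO there too.

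**Figure D3:**
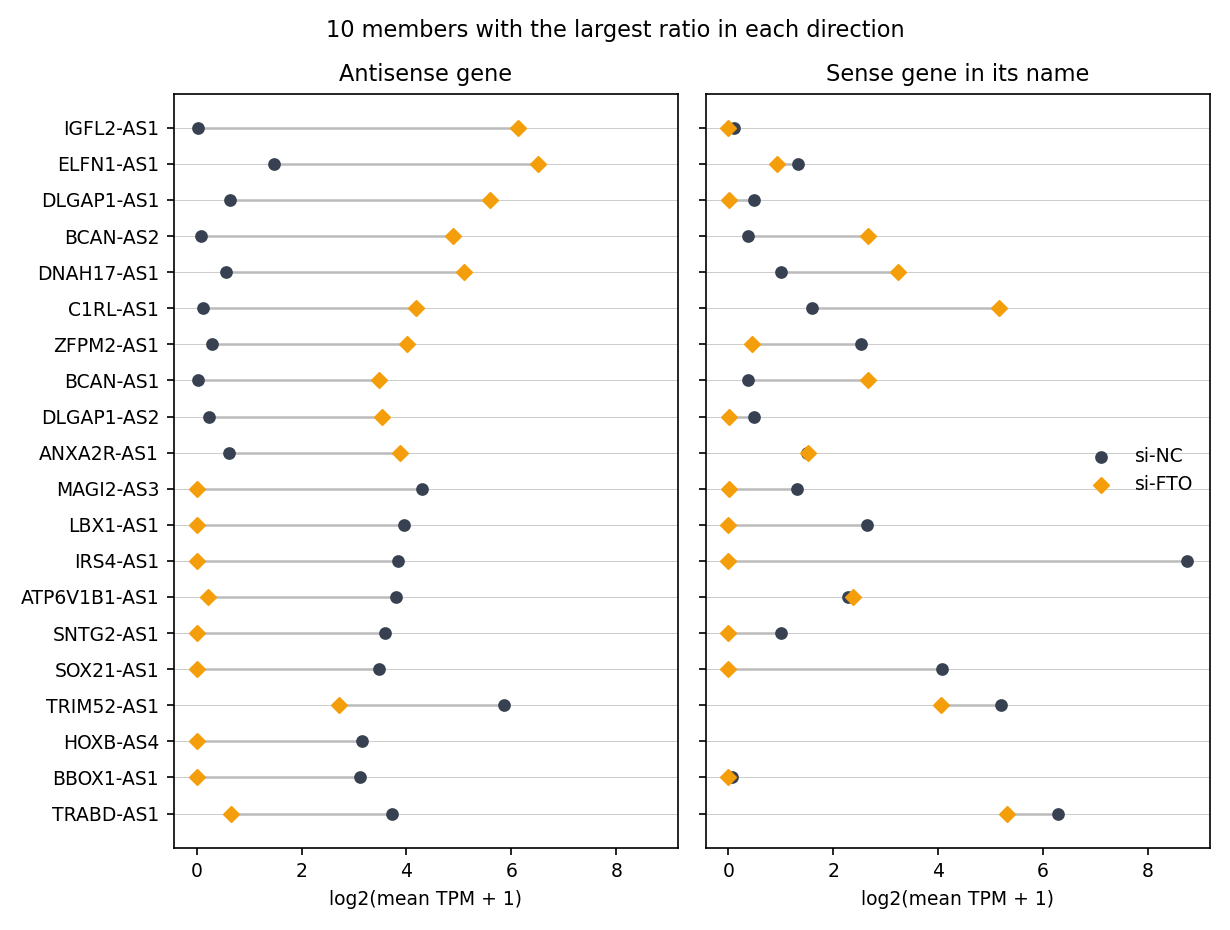
Means of the 10 members with the largest positive (upper rows) and negative (lower rows) ratio on the left, and of the sense gene of each on the right, as log2(TPM + 1), for si-NC (circles) and si-FTO (diamonds). IGFL2 and DLGAP1 lie near 0 in both groups, IRS4 is the highest sense gene in si-NC, and HOXB-AS4 has no single sense gene.

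Promoters are shown for 4 of these members, chosen as the most higher and the most lower that start beside or over the start of their sense gene and have an entry in the table of RefSeq promoters used here. Each is 300 bases on build GRCh38.p14, from 250 before to 50 after the start, 5′ to 3′. Capitals mark matches, on either strand, to TATAA, the core of the TATA box, GGGCGG, the GC box that Sp1 factors bind, and CCAAT, the site of NF-Y. The promoters lie at chr12:7108058-7108357 for C1RL-AS1, chr5:43041884-43042183 for ANXA2R-AS1, chr7:79452707-79453006 for MAGI2-AS3 and chrX:108736290-108736589 for IRS4-AS1, all on the + strand.
C1RL-AS1: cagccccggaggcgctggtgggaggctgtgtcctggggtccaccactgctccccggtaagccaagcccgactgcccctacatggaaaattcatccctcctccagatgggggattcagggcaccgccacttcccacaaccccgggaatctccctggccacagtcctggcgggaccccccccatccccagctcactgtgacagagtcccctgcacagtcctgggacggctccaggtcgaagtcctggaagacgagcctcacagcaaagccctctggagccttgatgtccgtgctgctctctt
ANXA2R-AS1: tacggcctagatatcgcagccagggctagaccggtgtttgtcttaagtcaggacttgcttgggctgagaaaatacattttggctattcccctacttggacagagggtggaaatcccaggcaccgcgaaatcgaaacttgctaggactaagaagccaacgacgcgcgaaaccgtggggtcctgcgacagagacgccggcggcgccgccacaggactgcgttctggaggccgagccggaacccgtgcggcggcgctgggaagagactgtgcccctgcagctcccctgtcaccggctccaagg
MAGI2-AS3: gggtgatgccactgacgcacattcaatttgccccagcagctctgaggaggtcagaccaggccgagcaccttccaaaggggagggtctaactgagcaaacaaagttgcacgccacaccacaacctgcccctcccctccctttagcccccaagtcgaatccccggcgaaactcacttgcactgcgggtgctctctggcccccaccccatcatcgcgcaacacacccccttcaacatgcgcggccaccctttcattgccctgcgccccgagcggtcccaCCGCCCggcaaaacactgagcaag
IRS4-AS1: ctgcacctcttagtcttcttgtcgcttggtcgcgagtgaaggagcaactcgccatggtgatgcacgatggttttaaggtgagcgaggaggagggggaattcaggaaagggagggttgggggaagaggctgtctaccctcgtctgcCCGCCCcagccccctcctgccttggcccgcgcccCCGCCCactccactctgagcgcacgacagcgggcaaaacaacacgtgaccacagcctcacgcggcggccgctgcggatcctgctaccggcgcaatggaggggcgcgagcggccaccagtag

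The promoters of C1RL-AS1 and ANXA2R-AS1 held none of the 3 motifs. The promoter of MAGI2-AS3 held 1 match to GGGCGG, after the start, and that of IRS4-AS1 held 2, with first bases at -105 and -71. CG pairs numbered 11, 25, 16 and 25 in the order printed. A match is a description of letters and not evidence of binding.

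Promoters of 159 members were in the table. TATAA, overlapping matches included, was in 7.55% of them and in 20.4% of all 35116 promoters, GGGCGG in 59.1% and 45.0%, and CCAAT in 35.8% and 34.6%. The median number of CG pairs was 23 in the members and 14 in all promoters. In promoters of all 1728 antisense symbols of the table, expressed here or not, the median was 9.5. Among the 27 higher members with a promoter, GGGCGG was in 14, among the 39 lower in 18, and among the 93 under the fold in 62. The members' median was thus above that of antisense genes at large, and no test was made. The members were chosen by level, and neither comparison set was. Promoters of other genes at the same minimum were not read, so selection by level and a trait of the members cannot be told apart.

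Each member was then set beside its sense gene. A sense gene was found for 201 members, and in 160 pairs it also had a larger mean of at least 5 TPM. The sense gene was the more abundant in 131 of 160 pairs in si-NC and 135 in si-FTO, with a median ratio of sense to antisense TPM of 4.30 in si-NC. The minimum on the sense gene raises these values. Over all 201, with the sense gene at any level, it was the more abundant in 136 in si-NC and 137 in si-FTO, with a median ratio of 2.53 in si-NC. In 115 pairs (71.9%) the log2 ratios of both genes had the same sign. Across the 160 pairs, Pearson's r of the log2 ratios was 0.70 and Spearman's rho 0.62, as a description. Over all 201 the same sign was seen in 143 (71.1%), r was 0.55 and rho 0.54. The paired genes share their libraries, their locus and, where exons overlap without known strand, perhaps reads, and pairs are not independent replicates.

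Within the 160 pairs, 29 members were higher by the fold and 41 lower. Of the 29, 19 had a sense gene that was also higher by the fold and 10 a sense gene under it. Of the 41, 21 had a sense gene that was also lower, 19 a sense gene under the fold, and 1 a sense gene that was higher. In 71 pairs neither gene passed, and in 19 only the sense gene did. Where the sense gene was under the fold, 100 pairs, the same sign was seen in 64 and r was 0.23. That r is lowered by construction, since the sense ratios of these pairs are held between -1 and 1. The same sign was seen in 26 of 33 pairs whose sense gene was higher by the fold and in 25 of 27 whose sense gene was lower.

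In some pairs the listed means of both genes differed strongly. Examples chosen after their values were seen are TM4SF1-AS1, PSMB8-AS1 and BASP1-AS1. TM4SF1-AS1 was listed at 0 with si-NC and had 5.89 TPM with si-FTO, beside TM4SF1, a membrane protein of epithelial and endothelial tumours, listed at 0 and at 558 TPM. PSMB8-AS1 had 0.355 and 5.77 TPM, beside 0.312 and 142 TPM for PSMB8, a subunit of the immunoproteasome. As 52.6% of the exonic bases of PSMB8-AS1 lie over exons of the other strand, its own level is uncertain. BASP1-AS1 had 0.0298 and 6.79 TPM, beside 30.9 and 956 TPM for BASP1, a membrane-bound signalling protein.
ELF3-AS1, beside ELF3 of the cell markers above, had 1.83 and 12.2 TPM.

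In 29 pairs only the antisense gene passed the fold, 10 higher and 19 lower. TRABD-AS1, VPS9D1-AS1 and OIP5-AS1, given above, are among them. BSG-AS1, named after its values were seen, had 4.46 and 43.6 TPM over the start of BSG, the gene of the surface glycoprotein basigin, at 708 and 1284 TPM. BSG was at a log2 ratio of 0.86, close to the fold, so membership of these 29 depends on the threshold for the sense gene.

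**Figure D4:**
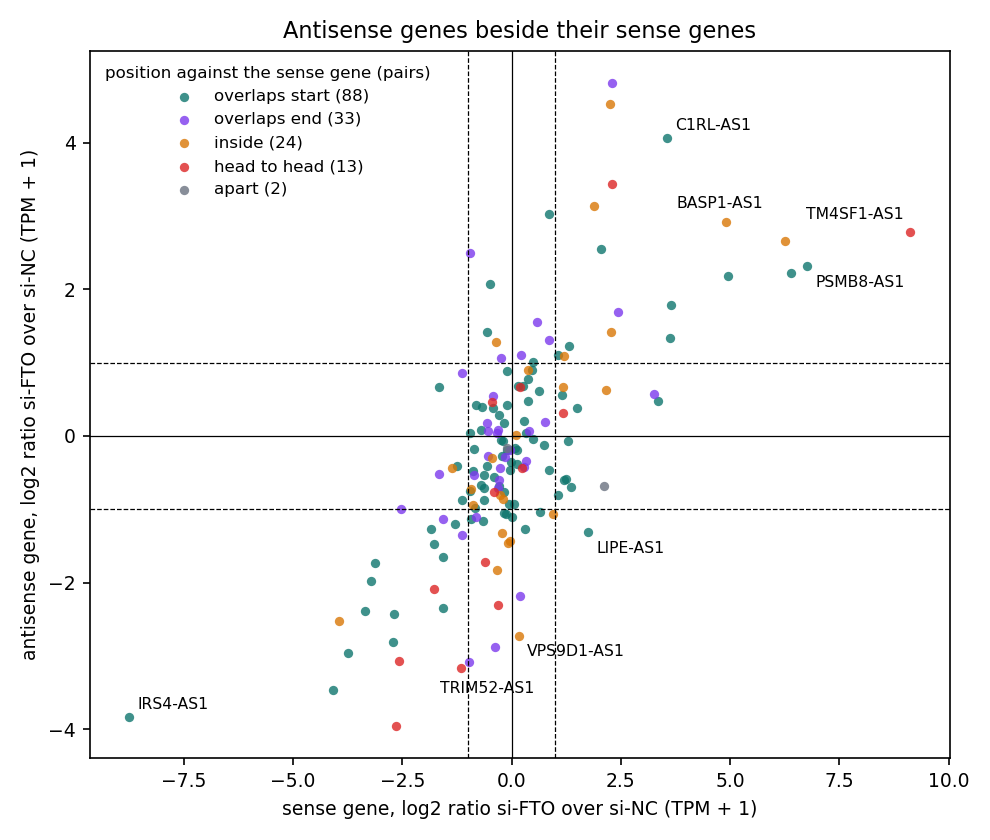
Log2 ratio of the sense gene (across) and of the antisense gene (up) for the 160 pairs, si-FTO over si-NC after adding 1 TPM, coloured by position. Dashed lines mark ratios of 1 and -1. Most points past the fold on both axes lie in the upper right and lower left, and LIPE-AS1 is alone in the lower right corner. IRS4 and TM4SF1 are listed at 0 in a group, so their places depend on the added 1 TPM.

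For 11 members the sense gene was past the fold in the opposite direction. LIPE-AS1 was the only pair with both genes past it and both at the minimum. It had 8.79 and 2.96 TPM, and LIPE, the hormone-sensitive lipase of fat cells, had 4.78 and 18.5 TPM. ZFPM2-AS1, above, also passed, though ZFPM2 was just under 5 TPM.

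In 6 of the others the sense gene was higher by the fold. KTN1-AS1 had 8.06 and 4.57 TPM, beside 39.1 and 102 TPM for KTN1, a kinesin receptor. SVIL-AS1 had 23.7 and 14.4 TPM, beside 9.80 and 45.5 TPM for SVIL, an actin-binding protein. The ID of SVIL-AS1 is classed as a transcribed pseudogene with 122 exonic bases in GENCODE 44, where a longer lncRNA of the same symbol has another ID that was not matched in the table. By that short model it does not overlap SVIL, so its place as a pair rests on its name. KRT10-AS1 had 22.4 and 12.5 TPM, beside 20.5 and 44.1 TPM for KRT10, a keratin of the upper epidermis.
DSP-AS1 had 8.34 and 5.14 TPM beside 54.6 and 126 TPM for DSP, the desmosome protein desmoplakin. ZSCAN16-AS1 had 6.38 and 3.93 TPM beside 3.48 and 9.68 TPM for the zinc finger gene ZSCAN16. DHRS4-AS1 had 14.8 and 14.0 TPM beside 32.1 and 80.2 TPM for DHRS4, a carbonyl reductase. The ratio of DHRS4-AS1, -0.07, turned positive under both scalings of the groups, so it has no firm direction.

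In the last 3 the sense gene was lower. AGAP2-AS1 had 20.03 and 23.3 TPM beside 2.44 and 0.0799 TPM for AGAP2, a GTPase regulator. FBXL19-AS1 had 6.42 and 10.8 TPM beside 67.2 and 20.5 TPM for FBXL19, which binds unmethylated CpG islands. ZNF337-AS1 had 4.75 and 9.39 TPM beside 15.0 and 6.25 TPM for the zinc finger gene ZNF337. In AGAP2-AS1 57.7% and in ZNF337-AS1 57.1% of exonic bases lie over exons of the other strand. ZNF337 itself, at a log2 ratio of -1.14, was just under the fold in both scalings, at -0.99 and -0.97. ZNF337-AS1, at 0.85, was just past it in both, at 1.01 and 1.08.

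Position was read from GENCODE 44 on the hg19 coordinates. Over the start of the sense gene lay 108 members, over its end 40, inside it 35, and 13 were head to head without overlap, with starts within 2000 bases. Another 4 did not overlap it, 1 was on the same strand in this annotation, and 7 have no gene in their name. Same signs were seen in 11 of 13 head-to-head pairs, 21 of 24 pairs with the antisense gene inside, 60 of 88 over the start and 22 of 33 over the end. Spearman's rho was 0.85, 0.63, 0.61 and 0.51 in that order. Among the 13 head-to-head members 2 were higher and 6 lower by the fold, 15.4% and 46.2%, with a median of -0.77. Over the start 16.7% were higher and 23.1% lower, inside 28.6% in each direction and over the end 22.5% in each, beside 13.3% and 17.4% of all genes. With 13 members, the head-to-head shares rest on few genes. The 6 lower head-to-head members are LBX1-AS1 and TRIM52-AS1, above, and PRKCQ-AS1, LCMT1-AS1, MNX1-AS1 and URB1-AS1, which are named after their values were seen.

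Exons of 170 members overlapped exons on the other strand, and those of 38 did not. Of the 38, 8 were higher and 20 lower (21.1% and 52.6%, beside 13.3% and 17.4% of all genes), with a median of -1.07. Of the 170, 33 were higher and 34 lower, with a median of -0.18. In the 24 pairs without shared exons the signs were the same in 19 and rho was 0.72, and in the 136 with shared exons in 96 with a rho of 0.60. Overlap with genes of the same strand, which TRIM52-AS1 and ATP6V1B1-AS1 among the 38 have, is not counted here. Whether shared reads play a part was not tested.

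The 7 members without a sense gene lie in the HOX clusters, whose homeobox genes set position along the body axis. HOXA-AS3 had 13.5 and 1.49 TPM. It overlaps, among others, HOXA4, HOXA5, HOXA6 and HOXA7, of which HOXA5 had 55.2 and 22.7 TPM, HOXA6 had 32.9 and 2.97 TPM, and HOXA7 11.6 and 12.5 TPM. HOXA-AS2, in the same cluster, had 8.14 and 12.87 TPM, over HOXA3 at 11.3 and 11.2 TPM and HOXA4 at 12.2 and 0.159 TPM. Of these, HOXA-AS3, HOXA4, HOXA5 and HOXA6 were lower by the fold and none was higher. HOXA-AS2, at a log2 ratio of 0.60, HOXA3 and HOXA7 were under it. HOXA9 (66.3 and 5.89 TPM) and HOXA10 (70.5 and 19.5 TPM), named after their values were seen, were also lower by the fold.
HOXB-AS3 had 13.7 and 6.38 TPM, over HOXB6 at 41.7 and 13.8 TPM, with HOXB3, HOXB4 and HOXB5 also at lower means in si-FTO. HOXD-AS2 had 10.8 and 4.03 TPM, over HOXD9 at 24.5 and 9.03 TPM, with HOXD3 and HOXD8 also lower. HOXB-AS4, listed at 0 in si-FTO, overlaps HOXB7 at 17.3 and 19.99 TPM but shares no exon with the other strand. HOXB9, of the same cluster and named after its values were seen, had 114 and 0.00505 TPM. HOXC-AS3 had 2.34 and 13.2 TPM, over HOXC10 at 50.8 and 139 TPM, while HOXC-AS1 had 8.71 and 5.35 TPM, over HOXC9 at 21.3 and 8.11 TPM and HOXC6 at 9.01 and 9.97 TPM. By the fold, 1 of the 7 was higher and 3 were lower, too few to set beside the 13.3% and 17.4% of all genes, and HOXB-AS3 missed the fold only in the fourth decimal.

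Other noncoding classes at the same minimum give the setting. Of 501 other genes of the annotation class lncRNA, 27.7% were higher and 24.8% lower, with a median of -0.04. Of 89 with symbols starting with LINC, which lie between genes, 41.6% were higher and 29.2% lower. Of 84 divergent transcripts, with symbols ending in -DT, 15.5% were higher and 26.2% lower, with a median of -0.29. The 158 sense genes of the pairs had 20.3% higher and 17.1% lower, and 11416 protein-coding genes 12.5% and 16.9%. The antisense members were thus nearest to the divergent transcripts in median and in the share lower. The ending -IT or -OT and a digit held only 3 genes, 1 of them higher.

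**Figure D5:**
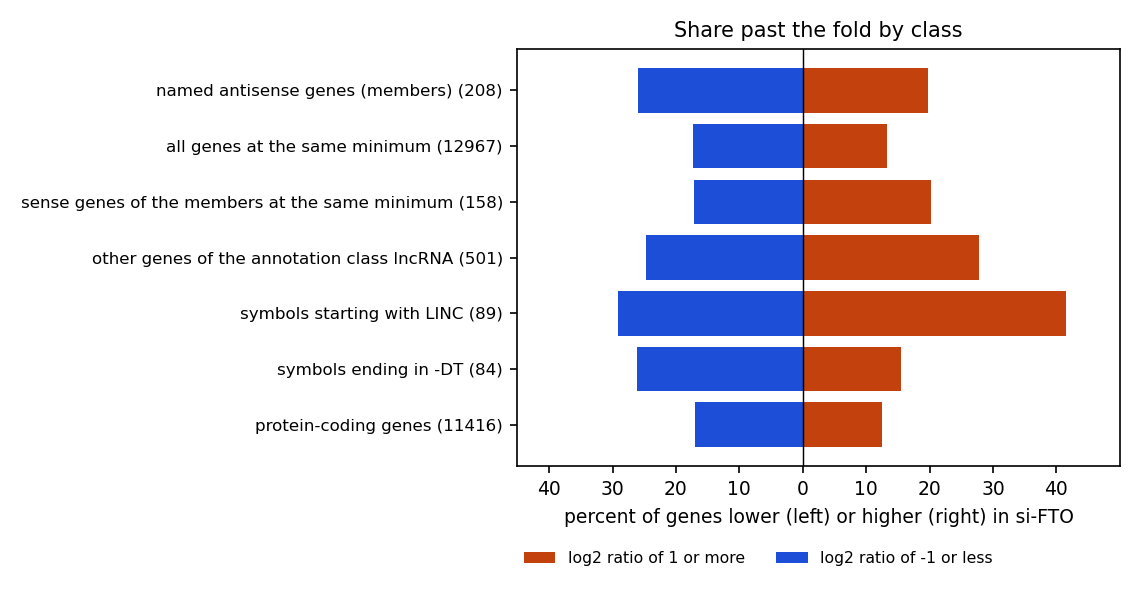
Percent of genes with a log2 ratio of 1 or more (right) and of -1 or less (left) in each class, with the number of genes in brackets, among genes whose larger mean was at least 5 TPM. Genes with LINC symbols have the longest bars on both sides, and the 208 named antisense genes have 19.7% and 25.96%.

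The summed level of the members was 2893 TPM with si-NC and 2723 TPM with si-FTO, and without TUBA1B-AS1 2335 and 2234 TPM. The sum over the 501 other lncRNA genes was 8039 and 16260 TPM. H19, an imprinted RNA named after its values were seen, had 1.34 and 7791 TPM and made up most of that difference. The total over antisense genes was therefore similar in both groups although single members differed widely.

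Genes that act on such transcripts are given for comparison, beside 13.3% higher and 17.4% lower among all genes at the minimum. All 29 genes of nuclear RNA turnover (the exosome, its adaptors and the early termination factors) reached the minimum, and 1 was higher and 1 lower, with a median of -0.32. DIS3, a catalytic exosome subunit, had 53.2 and 16.7 TPM, and TENT4A, a polymerase that adds short tails to RNA, had 26.7 and 65.2 TPM. EXOSC10, the other nuclear exonuclease of the complex, had 138 and 116 TPM.
Of 28 genes that limit antisense and promoter-upstream transcription (Integrator, cleavage and polyadenylation factors, histone chaperones), none was higher and 2 were lower, with a median of -0.16. These are the Integrator subunits INTS8, with 58.3 and 24.2 TPM, and INTS12, with 45.8 and 15.6 TPM. The median of this list is close to the -0.18 of all genes, and that of the turnover genes is lower.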

How the data were processed

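Total RNA of AGS cells was sequenced on an Illumina instrument. For each of 58174 genes the authors deposited the mean TPM of either group of 3 libraries, with no value per library. The study's methods name Bowtie and RSEM on hg19, whereas the submitters' processing notes name HISAT2 and hg19. Strand setting and annotation are not given in the sources used here. Depth is unknown, because TPM keeps none. The deposited log2 ratios, p-values and q-values, and a second table of genes passing them, were not used.

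Ensembl IDs were matched to symbols for 55726 genes. A value of 0.0001 was read as 0. Log2 ratios used a pseudocount of 1, with a fold of 1 in size and a minimum larger mean of 5 TPM. Sense genes were found by symbol or RefSeq synonym, and positions in GENCODE 44 mapped to GRCh37. A planned limma fit over 6 libraries could not be fitted to means. Calculations used Python 3.11.15 with pandas 2.3.3, and were tested on simulated data. Members and lists were chosen with earlier results of these data known. Named genes are FTO, the 10 members with the largest ratio in each direction, the 8 most abundant, those whose sense gene passed the fold in the opposite direction, the 2 genes on each side of the minimum, and the sense genes of all these. Alternatives covered pseudocount, minimum, fold, scaling, symbols and exon overlap.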

Additional observations from a re-analysis of the deposited data

How the results depend on the processing

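No paired analysis was possible because the table holds 1 mean per group, and leaving out a library was not possible for the same reason. Pseudocounts of 0.1 and none, and symbols of the annotation, left all 5 summary results within 1.5 times their value, and both scalings did so for the 4 counts. The members' median of -0.28 became -0.12 under median-ratio scaling and -0.15 under quantile normalization. For all genes the median of -0.18 became -0.012 and -0.12. With median-ratio scaling 45 members were higher and 44 lower, beside 15.5% and 14.6% of all genes, and with quantile normalization 45 and 40, beside 14.5% and 15.5%.

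The minimum sets how many genes enter. At 1 TPM, 85 of 517 members were higher and 107 lower (16.4% and 20.7%, beside 13.04% and 19.5% of 17943 genes), the median was -0.13, 338 of 467 pairs had the same sign, and in 70 only the antisense gene passed. With no minimum, 85 of 1277 were higher and 107 lower (6.66% and 8.38%, beside 6.78% and 10.1% of 34504 genes), the median was -0.046, 867 of 1236 pairs had the same sign, and in 87 only the antisense gene passed. At 10 TPM, 28 of 119 were higher and 32 lower (23.5% and 26.9%, beside 13.3% and 15.0% of 10785 genes), 51 of 73 pairs had the same sign, and in 14 only the antisense gene passed. The members exceeded all genes in both shares at 5 and 10 TPM, by less at 1 TPM, and in neither with no minimum. After adding 1 TPM, a gene whose larger mean is under 1 TPM cannot pass the fold. So with no minimum the counts stay those at 1 TPM, and only the number of genes grows. The shares and medians with no minimum thus depend on how many such genes each set holds. The median of all genes was -0.21 at 1 TPM and -0.053 with no minimum, and the members' median was above it in both. At 10 TPM the members' median of -0.28 was below the -0.16 of all genes, as it was at 5 TPM.

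Among the 38 members with no exon shared with the other strand, 8 were higher and 20 lower, the median was -1.07, 19 of 24 pairs had the same sign, and in 7 only the antisense gene passed. At a fold of 0.5, 58 members were higher and 86 lower (27.9% and 41.3%, beside 22.0% and 34.0% of all genes). At a fold of 2, 25 were higher and 26 lower (12.0% and 12.5%, beside 6.81% and 7.66%), and in 12 pairs only the antisense gene passed. The larger number on the lower side was lost under median-ratio scaling in members as in all genes, and under quantile normalization in the members, and the cause of the other shifts was not tested. Of 47 named genes past the fold, 45 were past it in the same direction under each scaling and 47 under each pseudocount.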
